A study of Rattus norvegicus with 2 samples.

Results

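Leukocyte adhesion molecules and chemokines were followed in cultured rat endothelial cells from the endocardium, the lining of the heart chambers, and from the aorta. The list held 10 genes: the adhesion molecules Vcam1, Icam1, Pecam1 and Sele, the chemokines Cx3cl1, Ccl2, Ccl20, Cxcl1 and Cxcl12, and the chemokine-scavenging receptor Ackr3. These genes were selected on intensities and ratios of these same 2 arrays, so their differences are a description and no support for one. A member was represented by every non-control probe set (a group of probes designed against 1 transcript sequence) that the platform annotation pairs with its symbol alone. That gave 13 probe sets for 8 of the 10 members, among 4736 genes in all. Cxcl1 and Cxcl12 had no such probe set, and no value is given for them.

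The endocardial group was 1 Affymetrix rat genome U34A array with total RNA of endocardial endothelial cells, and the aortic group was 1 such array with total RNA of aortic endothelial cells. Both cell types came from the same 2 rats, were pooled over the rats within each origin, and were grown for 2 passages with conditions and confluence matched. No cytokine or other agent is named in the labels, and strain, sex and age are not given in the sources used here. With 1 array per group there is no replicate check and no test of any difference.

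Values were deposited as linear intensities, which can fall below 0. They were scaled to a shared trimmed mean. A floor was set at the median of all scaled values, 635.4, and a gene was measured when at least 1 of its probe sets exceeded the floor on at least 1 array, which held for 2935 genes. Of 38 background control probe sets, the highest values were 1742.4 (endocardial) and 1696.7 (aortic), and 1742.4 served as a second, stricter limit. Ratios are endocardial over aortic on the log2 scale. Log2 ratios of different probe sets for 1 gene had a pooled SD of 0.39 over 625 genes, and 0.30 over 385 genes for probe sets above the stricter limit. It describes scatter between probes, not between cultures.

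As background, leukocytes leave the blood in steps: selectins on the endothelium let them roll, chemokines held at the surface activate their integrins, and the activated integrins grip VCAM-1 and ICAM-1 before the cell crosses the junction, where PECAM-1 sits. Resting endothelium carries little E-selectin or VCAM-1, and inflammatory cytokines such as tumour necrosis factor and interleukin-1 raise them largely through the transcription factor NF-kappaB. The same factor is known to act on the genes of ICAM-1 and of several chemokines.

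The cells were first set against markers of their labelled type. Of 14 endothelial markers, 10 had a probe set and 6 were measured, with a summed intensity of 17269.8 on the endocardial and 17176.8 on the aortic array. Cav1 was the largest part of these sums, with 6862.8 and 6861.7 in that order. Flt1 (1054.3 and 827.4) and the median of Nos3 (1382.2 and 1396.5) were under the stricter limit on both arrays. At least 1 of the 6 Nos3 probe sets exceeded that limit, and Thbd did so on both arrays (2848.2 and 3920.6). Against it 5 endothelial markers were measured. Pecam1, Kdr, Vwf and Icam2 stayed below the floor on each array, with Kdr and Icam2 at or below 0 on both, and Cdh5, Tek, Tie1 and Eng had no probe set paired with their symbol alone. Macrophage and leukocyte markers had a summed intensity of 60493 on the endocardial and 15072.4 on the aortic array over 12 measured genes of 18. Lyz2, macrophage lysozyme, supplied most of that gap with 33619.5 on the endocardial and 287.8 on the aortic array, and the other 11 genes summed to 26873.5 and 14784.6. Of the 12 genes, 6 were past 2-fold higher (Lyz2, the protease Ctss, Cd53, RT1-Da, Cd74 and Fcgr2b) and 0 lower. Against the stricter limit that held for Lyz2 alone, 1 of 9 measured. Over all measured genes, 5.93% were at least 2-fold higher, and 3.99% against the stricter limit. Unlike RT1-Da, RT1-Ba had a log2 ratio of -0.94, with probe sets from -1.27 to 1.75, and RT1-Db1 stood at 0.05. The leukocyte phosphatase Ptprc read 1103 and 1171 in that order, while Csf1r, Itgam and C1qb lay below the floor on each array.

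The 13 measured fibroblast markers summed to 365812 on the endocardial and 426770 on the aortic array, and 3 of them were past 2-fold, also against the stricter limit. Brightest were the collagen genes Col1a1 (68163.2 on the endocardial and 74687.4 on the aortic array) and Col1a2 (64332.1 and 77303 in that order). The proteoglycan Dcn read 986.5 on the endocardial and 19147.4 on the aortic array, a log2 ratio of -3.80, lower than that of Vcam1 given further on. The collagen cross-linking enzyme Lox stood at -1.53 and the matricellular protein Postn at 2.98. The 7 smooth muscle markers summed to 140765 on the endocardial and 91568 on the aortic array. Tagln (58741.5 and 49583.5 in that order, log2 ratio 0.23) and Acta2 (50038.6 and 26902, 0.71) were the largest parts of these sums. Cnn1 stood at 0.97, Myl9 at 1.54 and Itga8 at 1.21, with Myh11 at least 3.99-fold lower against the floor. Against the stricter limit, Myl9 stayed at 1.54, while Itga8 stood at 0.09 and Myh11 was at least 1.45-fold lower. Among endothelial markers, the converting enzyme Ace stood at -1.16 (-0.40 against the stricter limit) and endothelin, Edn1, at 1.13 with either limit. Cardiomyocyte markers, 6 of 11 measured, summed to 6263 and 6746, with Nppb and Actc1 at or below 0 on both arrays, and the 2 measured mesothelial and epicardial markers to 2798 and 1158. Des, of the smooth muscle list, was at or below 0 on both arrays. The part of these other cell types in the results that follow was not tested, and fewer cells of a type cannot be told apart from less RNA per cell.

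**Figure D1:**
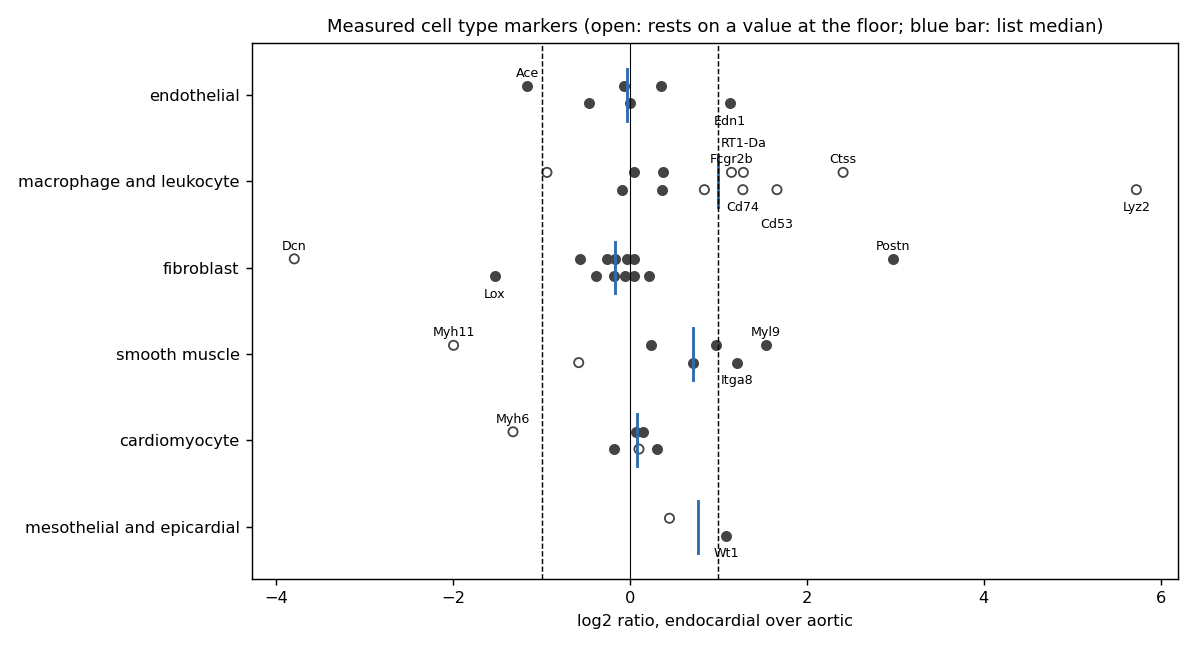
Log2 ratio, endocardial over aortic (x axis), of the measured genes of 6 cell type marker lists (rows), 1 point per gene. Open points rest on at least 1 value at the floor, blue bars are list medians, dashed lines mark 2-fold and genes past 2-fold are named. Macrophage and leukocyte genes lie mostly to the right (median 0.99), with Lyz2 farthest out at 5.73, and endothelial genes lie on both sides of 0 (median -0.03).

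Among the 6 measured members, 3 were at least 2-fold lower on the endocardial array (Vcam1, Ackr3 and Ccl20), 0 were at least 2-fold higher, and Icam1, Cx3cl1 and Ccl2 lay between. Over all measured genes 4.16% were at least 2-fold lower and 5.93% at least 2-fold higher. The members were chosen on this contrast, so nothing is read from their share. Their median log2 ratio was -0.92, against -0.02 for all measured genes. With the floor raised to the stricter limit, 5 members were measured and 2 were lower, Vcam1 and Ackr3, where 2.36% of 1904 genes were lower and 3.99% higher.

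**Figure D2:**
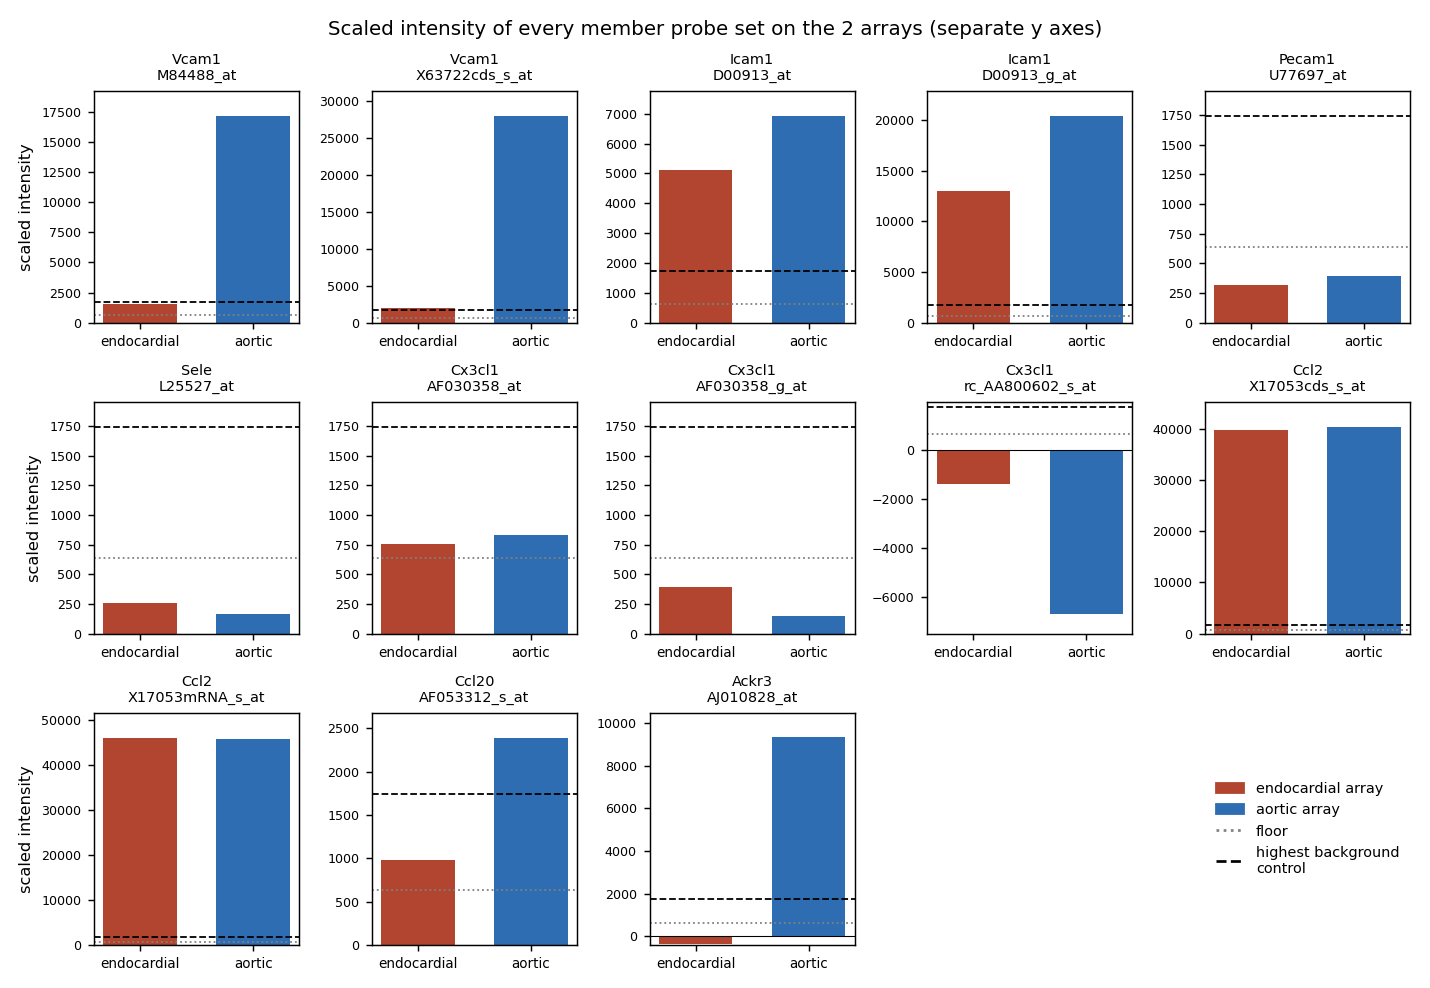
Scaled intensity (y axes, linear, each panel on its own scale) of all 13 member probe sets on the endocardial (red, left) and aortic (blue, right) array, 1 bar per array, so bars carry no error. The dotted line is the floor (635.4) and the dashed line the highest background control (1742.4). Both Vcam1 probe sets and that of Ackr3 are tall on the aortic array alone, both Ccl2 probe sets are level, and those of Pecam1 and Sele stay under the floor.

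Vcam1 encodes the endothelial ligand of the leukocyte integrin VLA-4, which holds rolling monocytes and lymphocytes. Its probe set M84488_at read 1557.6 on the endocardial and 17212.9 on the aortic array, a log2 ratio of -3.47 (11.1-fold lower). The probe set X63722cds_s_at, designed on another sequence record, read 2017.6 on the endocardial and 28027.1 on the aortic array, a log2 ratio of -3.80 (13.9-fold lower). Both probe sets were thus bright on the aortic array and near the background controls on the endocardial array, where 1 of the 2 exceeded the highest control. The ratios of the pair differed by 0.33, less than the SD of 0.39 between probe sets of 1 gene. Counted against the stricter limit, the fold of M84488_at becomes a lower bound of 9.88. As the median of its probe sets, Vcam1 had a log2 ratio of -3.63, and 5 of the 2935 measured genes lay lower: Wfdc18 (-5.03), Avpr1a (-4.49), Ndufa4l2 (-4.47), Ackr3 (-3.88) and Dcn (-3.80). Each of the 5 had at least 1 endocardial value at the floor.

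Icam1 encodes the ligand of the leukocyte beta-2 integrins. The probe set D00913_at read 5104 on the endocardial and 6932 on the aortic array, a log2 ratio of -0.44. D00913_g_at, from the same sequence record, read 12961.6 on the endocardial and 20433.4 on the aortic array, a log2 ratio of -0.66. All 4 values were above the stricter limit, and both probe sets were dimmer on the endocardial array, by 1.36-fold and 1.58-fold. The gene's log2 ratio of -0.55 stayed within 2-fold, and the log2 ratio of Vcam1 minus that of Icam1 was -3.08.

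The start-site regions of Vcam1 and Icam1 are shown because both genes are textbook NF-kappaB targets yet had unequal ratios here. They are RefSeq sequences of assembly GRCr8, from 250 bases before to 50 after the annotated start, at chr2:206742734-206743033 (minus strand) for Vcam1 and chr8:27829595-27829894 (plus strand) for Icam1. Capitals mark, on either strand, a loose kappaB pattern (GGG and CC spaced by 5 bases of any kind) and the TATA box TATAAA.
Vcam1: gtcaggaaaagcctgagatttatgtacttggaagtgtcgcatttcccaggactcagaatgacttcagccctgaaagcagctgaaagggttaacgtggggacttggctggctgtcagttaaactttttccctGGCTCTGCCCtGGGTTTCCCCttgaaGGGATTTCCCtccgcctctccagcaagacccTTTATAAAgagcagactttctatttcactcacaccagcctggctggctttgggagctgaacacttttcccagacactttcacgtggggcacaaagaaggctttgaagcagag
Icam1: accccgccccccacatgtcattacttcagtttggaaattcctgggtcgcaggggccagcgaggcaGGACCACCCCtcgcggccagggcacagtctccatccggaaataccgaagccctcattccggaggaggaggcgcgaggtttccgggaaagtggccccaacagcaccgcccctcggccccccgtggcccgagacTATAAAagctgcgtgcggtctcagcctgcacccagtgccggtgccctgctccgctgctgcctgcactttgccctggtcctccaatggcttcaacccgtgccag
In Vcam1 the run GGGATTTCCC, 93 to 84 bases before the start, matched the stricter kappaB consensus on both strands. The run GGGTTTCCCC, at 108 to 99 bases before it, matched the loose pattern alone, as did GGCTCTGCCC at 119 to 110. Icam1 held 0 matches to the consensus and 1 to the loose pattern, GGACCACCCC, at 185 to 176 bases before the start. Both patterns require GGG, or CCC on the other strand, so a run such as TGGAAATTCC in the Icam1 window stays unmarked. The counts therefore do not show that Icam1 lacks a kappaB site or holds fewer than Vcam1. A TATA box began 60 bases before the start in Vcam1, where it overlapped a match on the other strand, and 53 bases before it in Icam1. Of 33469 rat promoter windows of this length, 7.51% held the kappaB consensus, 47.3% the loose pattern, 14.2% TATAAA and 7.33% the AP-1 motif TGANTCA, which neither gene had in this window. A match is a run of letters and not a shown binding site.

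The other adhesion members were not measurable. Pecam1, the junctional molecule through which leukocytes pass and a standard endothelial marker, read 312.6 on the endocardial and 393.3 on the aortic array. Sele encodes E-selectin, the rolling receptor of activated endothelium, and read 256.9 on the endocardial and 166.8 on the aortic array. All 4 values were under the floor, so neither gene has a ratio, and presence or absence of its transcript cannot be read from 1 dim probe set. The promoter window listed for Sele held 0 matches to the kappaB patterns, TATAAA or TGANTCA. Its annotated start falls exactly on the letters ATG, so the window may not cover the Sele promoter. The 0 therefore does not show that this promoter lacks the motifs.

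Of the chemokine members, Ccl2 was level between the arrays and Ccl20 was dimmer on the endocardial array. Ccl2, the monocyte chemoattractant MCP-1, read 39826.4 on the endocardial and 40378.9 on the aortic array with X17053cds_s_at, a log2 ratio of -0.02. With X17053mRNA_s_at it read 45934.3 on the endocardial and 45776.7 on the aortic array, a log2 ratio of 0.0050. The pair, from 1 sequence record, thus had linear ratios of 0.986 and 1.003. Both log2 ratios were smaller in size than the log2 SD of 0.30 for probe sets above the stricter limit. That SD is scatter between probes, so it cannot tell whether Ccl2 differs between cultures. The log2 ratio of Vcam1 minus that of Ccl2, also a known NF-kappaB target, was -3.62. Ccl2 was bright on both arrays in cells for which no inflammatory stimulus is labelled.

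Ccl20 attracts CCR6-bearing dendritic cells and lymphocytes. Its 1 probe set, AF053312_s_at, read 976.9 on the endocardial and 2388.7 on the aortic array, a log2 ratio of -1.29 (2.45-fold lower). The endocardial value was under the stricter limit, against which the fold is at least 1.37. The region around its start is given since it held the consensus, at chr9:91836909-91837208 (plus strand, GRCr8), with capitals as for Vcam1.
Ccl20: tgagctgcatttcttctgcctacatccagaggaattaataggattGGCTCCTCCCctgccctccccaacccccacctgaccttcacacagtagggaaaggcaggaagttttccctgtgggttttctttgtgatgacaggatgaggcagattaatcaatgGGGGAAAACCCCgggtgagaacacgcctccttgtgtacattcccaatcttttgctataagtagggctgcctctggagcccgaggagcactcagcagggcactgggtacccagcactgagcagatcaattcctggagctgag
GGAAAACCCC, 89 to 80 bases before the start, matched the kappaB consensus on the reverse strand, within a run of overlapping loose matches. A further loose match, GGCTCCTCCC, stood at 205 to 196 bases before it.

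Cx3cl1 encodes fractalkine, a chemokine that is tethered to the membrane and also serves as an adhesion molecule. Of its 3 probe sets, AF030358_at alone exceeded the floor, with 757.5 on the endocardial and 828.4 on the aortic array, a log2 ratio of -0.13. Both of these values were under the stricter limit. AF030358_g_at read 390.1 on the endocardial and 152.5 on the aortic array, and rc_AA800602_s_at read -1401.2 and -6695 in that order. None of the 3 exceeded the stricter limit on either array. Promoter windows were listed for 8 of the 10 members. That of Cx3cl1 held TATAAA alone, those of Pecam1 and Ccl2 were not among them, the one of Cxcl1 held 2 overlapping consensus matches and the one of Cxcl12 held 0.

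Ackr3 takes up and degrades CXCL12 without the usual G protein signal. AJ010828_at, its 1 probe set, read -361.7 on the endocardial and 9343.5 on the aortic array. The fold has only a bound, at least 14.7-fold lower against the floor and at least 5.36-fold lower against the stricter limit. Cxcr4, the signalling receptor for the same chemokine, had a log2 ratio of 0.48 from 2 of its 3 probe sets, with median intensities of 1424.8 on the endocardial and 1026.5 on the aortic array, both under the stricter limit. The ligand itself, Cxcl12, was not measured here. In the window of Ackr3, TATAAA was the one motif found, 54 to 49 bases before the start.

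**Figure D3:**
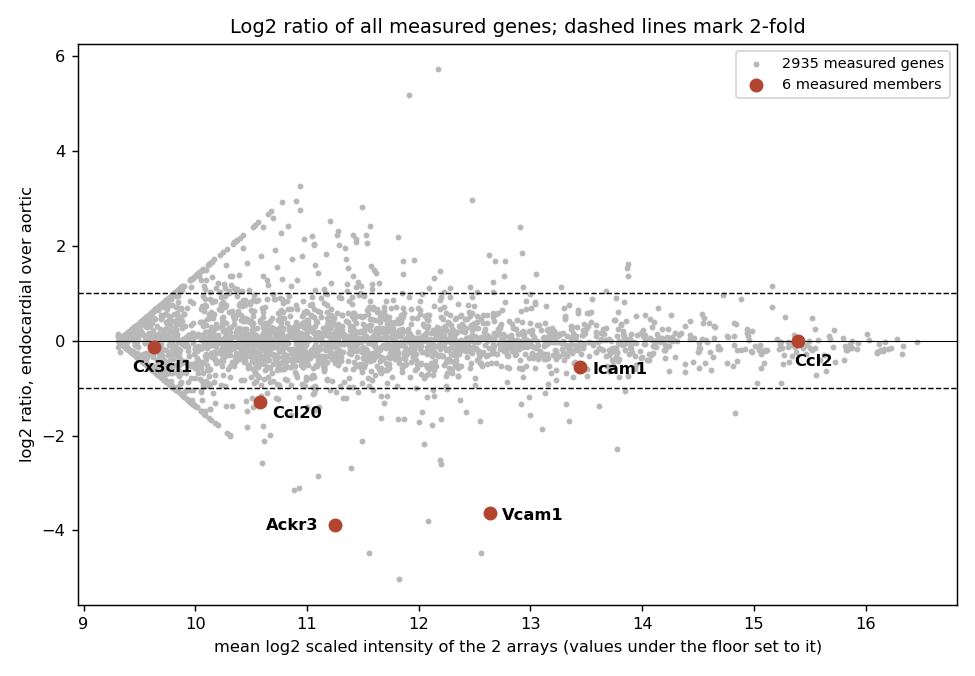
Log2 ratio, endocardial over aortic (y axis), against mean log2 scaled intensity of the 2 arrays (x axis) for the 2935 measured genes (grey), with the 6 measured members in red and named. Dashed lines mark 2-fold, and the diagonal edges at the left are genes set to the floor on 1 array. Vcam1 (-3.63) and Ackr3 (-3.88, a bound) lie near the bottom, while Icam1 (-0.55), Cx3cl1 (-0.13) and Ccl2 (-0.01) lie between the lines.

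Genes outside the members were given by 7 lists, also chosen with earlier results of these data known. Of the counterparts on leukocytes, Itgb1, a chain of VLA-4 that most adherent cells also carry, read 40927 on the endocardial and 22322.5 on the aortic array (log2 ratio 0.87), and Itgb7 1406.8 and 837.5 (0.75). Both Itgb7 values were under the stricter limit, and Itgam and Itgae lay below the floor on each array. The fractalkine receptor Cx3cr1 read 136 on the endocardial and 72.3 on the aortic array, and the CCL2 receptor Ccr2 read -150.8 and 295.3, both under the floor.

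Other adhesion molecules had a median log2 ratio of -0.28 over 10 measured genes, with 1 at least 2-fold lower and 0 higher. The lower one was the neural adhesion molecule Ncam1 (-1.25), whose 2 probe sets disagreed at -2.15 and -0.35. Next came Thy1, a surface glycoprotein that binds leukocyte integrins, at -0.56. Highest were Cd47, which restrains phagocytes, at 0.46 and Glycam1, an L-selectin ligand, at 0.31 with an aortic value under the floor. Selp, the platelet and endothelial selectin, read 68.5 on the endocardial and -47.7 on the aortic array.

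Of 7 measured other chemokines and receptors, 0 were at least 2-fold lower and 1 was higher, Pf4, a platelet chemokine, at least 2.85-fold against the floor (1811.4 on the endocardial and 333.9 on the aortic array). Against the stricter limit that bound is 1.04. The neutrophil chemokine Cxcl6 had a log2 ratio of 0.28, the cytokine Mif -0.34 and the scavenger Ackr2 -0.72, the last with an endocardial value under the floor. Cxcr4, at 0.48, was second highest, and Cxcl13, a B cell chemokine, at -0.34 was second lowest, with an endocardial value under the floor. The remaining 14 genes with a probe set, Ccl3, Ccl4, Ccl5, Cxcl2, Cxcl3 and Cxcl10 among them, were under the floor on both arrays. The list median was 0.10.

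Cytokines and their receptors had a median of 0.30 over 14 measured genes, with 3 at least 2-fold higher and 0 lower. Tnfrsf1a, the main receptor for tumour necrosis factor, read 3453.9 on the endocardial and 474.4 on the aortic array, at least 5.44-fold higher against the floor and at least 1.98-fold against the stricter limit. Ifngr1, a chain of the interferon gamma receptor, read 4330 on the endocardial and 1219.6 on the aortic array (log2 ratio 1.83). Against the stricter limit Ifngr1 stood at 1.31, a bound. Il1rl1, the interleukin-33 receptor, had probe sets at 0.77 and 4.30, with 1 aortic value under the floor. Lowest were Il4r, an interleukin-4 receptor chain, at -0.61 and the decoy receptor Il1r2 at -0.46. The cytokines Tnf, Il1a and Ifng lay below the floor on each array.

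In the NF-kappaB list 4 of 25 genes were measured, with 0 past 2-fold and a median of 0.50. The subunit Nfkb1 read 6165.9 on the endocardial and 3743.6 on the aortic array (log2 ratio 0.72). Cd14, a co-receptor for bacterial lipopolysaccharide, stood at 0.38. Traf2, an adaptor of tumour necrosis factor receptors, read 974 on the endocardial and 335.5 on the aortic array, at least 1.53-fold higher against the floor. The inhibitor Nfkbia, itself a target of the pathway, stood at 0.24 with 1 of its 2 probe sets bounded by the floor, and every value of both genes was below the stricter limit. Rela and Relb had no probe set paired with their symbol alone.

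Other inflammatory response genes went both ways, with 5 of 11 measured genes at least 2-fold lower, 1 higher and a median of -0.76. Tissue factor, F3, read 6354 on the endocardial and 30993.6 on the aortic array (log2 ratio -2.29). The iron-scavenging acute phase protein Lcn2 read 3341.8 on the endocardial and 10794 on the aortic array (-1.69). Hmox1, which degrades heme, stood at -1.05 over 2 probe sets. Plaur and Ptgs2 were also past 2-fold lower (-1.63 and -1.25) but not against the stricter limit (-0.18 and -0.28). In the other direction, the complement component C3 read 7356 on the endocardial and 1125.8 on the aortic array (2.82), and the urokinase gene Plau stood at 0.99 with an aortic value under the floor. Against the stricter limit C3 stood at 2.07.

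**Figure D4:**
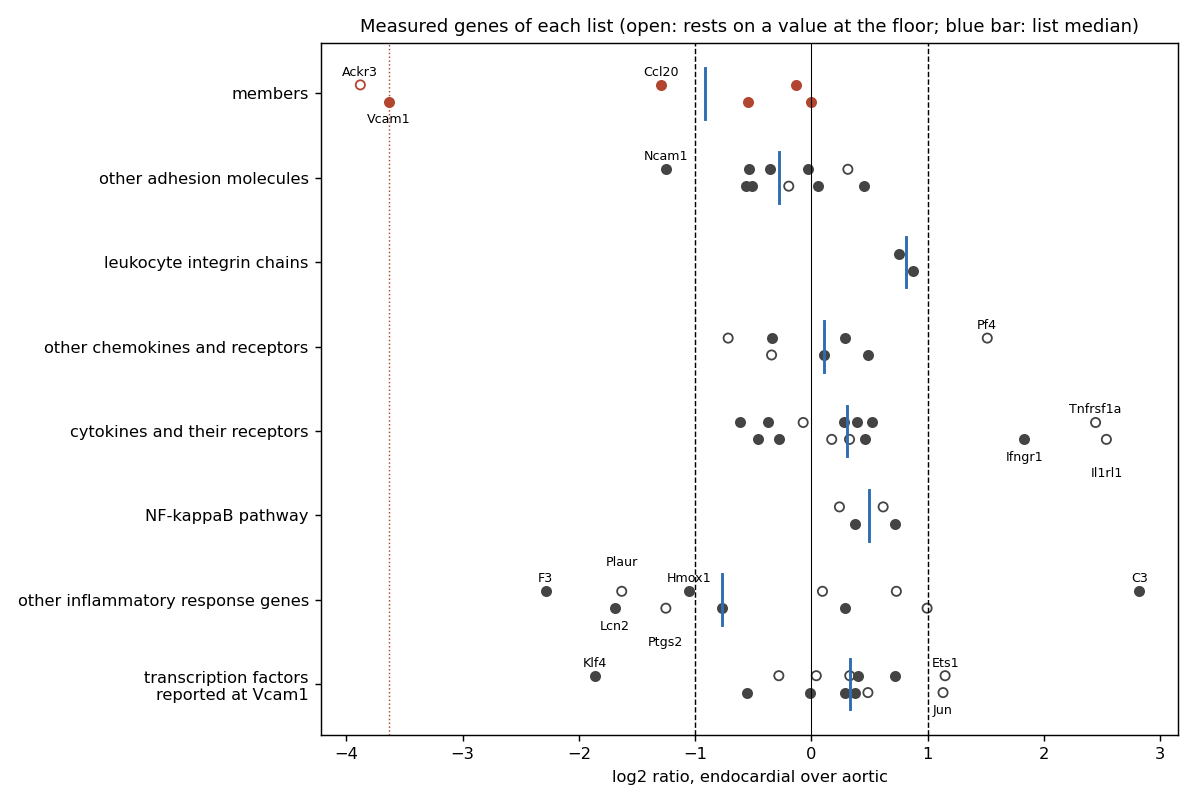
Log2 ratio, endocardial over aortic (x axis), of the 6 measured members (red) and of the measured genes of 7 lists (grey), 1 point per gene, with lists in rows. Open points rest on at least 1 value at the floor, blue bars are list medians, dashed lines mark 2-fold and the dotted line is Vcam1. No listed gene reaches the Vcam1 line at -3.63, and the nearest is F3 at -2.29. Genes dim on the aortic array could not reach that line, because the floor limits how low their ratios can go.

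The Vcam1 ratio was then set against the 4 inflammatory lists joined (other chemokines, cytokines, NF-kappaB and other response genes). Of their 36 measured genes 5 were at least 2-fold lower (13.9%, against 4.16% of all measured genes), 5 at least 2-fold higher (13.9%, against 5.93%) and 26 lay between. In either direction this was 27.8% of the joined lists and 10.1% of all measured genes. The lists were chosen with these data known, so the excess is a description. Their median was 0.26, and 0 of the 36 lay as low as Vcam1, which was 1.34 log2 units under the lowest, F3. The floor limits how low a gene can go, so genes dim on the aortic array could not have reached the Vcam1 ratio. Il4r (4108.4 on the aortic array) and Nfkb1 (3743.6) were among these. Vcam1 was also chosen on these arrays, so the 0 does not show that it stands apart. Genes with reported roles at the Vcam1 promoter had a median of 0.33 over 13 measured genes. Lowest were Klf4, a transcription factor known to restrain Vcam1 in endothelium, which read 4599 on the endocardial and 16749.7 on the aortic array (-1.86, with 2 probe sets at -1.95 and -1.78), and Gata6 (-0.55). Highest were Ets1 (1.15) and Jun (1.13), each with an aortic value under the floor. Irf1, an interferon-induced factor with a known site near the human VCAM1 start, stood at 0.29.

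Among genes with every kept probe set above the floor on both arrays, the 5 with log2 ratios nearest to Vcam1 over the 2 arrays were Wfdc1 (-2.68), Gadd45a (-2.60), Enpp3 (-2.51), F3 and Slc16a3 (-2.17). The closest of them, Wfdc1, was 0.96 log2 units above Vcam1 and read 1066.5 on the endocardial and 6814 on the aortic array. That rule leaves out genes with any value at the floor. Dcn, with 1 such probe set of 4, was nearer to Vcam1, 0.16 log2 units below it, and stood at -3.45 against the stricter limit, where Vcam1 stood at -3.55.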

How the data were processed

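Total RNA of 1 endocardial and 1 aortic cell pool was measured on 1 array each. The deposited values are linear intensities, 1 per probe set and array, with no summarising software named in the labels or file headers. In Python 3.11.15 with pandas 2.3.3, the 59 control probe sets were left out and the 8740 others scaled to a shared trimmed mean (2% cut at each end, factors 0.999 and 1.00). Values under the floor were set to it before taking log2, and a gene was the median of its kept probe sets. Of 8740 probe sets, 7006 had 1 symbol, 308 several and 1426 none, and all 8 member symbols matched a RefSeq gene table (GRCr8) by gene identifier. The ratio and counting steps were tested on simulated data and the motif step on short written sequences. Simulated differences were placed in bright probe sets alone, so differences near the floor were not tested.

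With 1 array per group no test was run and no p-value is given; a fixed 2-fold difference was counted. The number of arrays limits the precision. Members and lists were chosen with earlier results of these data known, and the loose kappaB pattern after promoter sequences were seen. Named genes were all members, the 2 highest and 2 lowest of each of the 7 gene lists with those past 2-fold, and the 5 nearest to Vcam1. Cell type markers, counterparts of members, genes under the floor and the genes with ratios under that of Vcam1 were named after their values were seen. Alternatives concerned scaling, the floor and the choice of probe set.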

Additional observations from a re-analysis of the deposited data

How the results depend on the processing

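No paired analysis was possible because each group had 1 array, and no array could be left out. Across 8 alternatives, Vcam1 stayed between -3.80 and -3.09 in log2 ratio and Icam1 between -0.66 and -0.51. No scaling alternative, nor the use of deposited values, changed a member's side of 2-fold. Members at least 2-fold lower numbered 3, or 2 with either higher floor or with none, and 0 were higher throughout.

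With the floor raised to the top background control value (1742.4), Ccl20 moved to -0.46 and Ackr3 to -2.42, all genes at least 2-fold lower numbered 45 and higher 76 (122 and 174 otherwise), and genes past 2-fold numbered 0 in the other adhesion list, 0 in the other chemokine list and 1 among factors at the Vcam1 promoter. With the floor at the 75th percentile (2576.1), Vcam1 stood at -3.09 (M84488_at at -2.74), Ackr3 at -1.86 and Vcam1 minus Icam1 at -2.54, all genes at 40 lower and 45 higher, and those lists at 0, 0 and 1, with cytokines at 1. Ccl20 and Cx3cl1 then had no value. With no floor, Cx3cl1 turned to 0.61, all genes numbered 410 lower and 342 higher, and lists gave 2 (other adhesion), 2 (integrins), 5 (other chemokines), 5 (cytokines) and 1 (NF-kappaB). Ackr3, below 0 on the endocardial array, had no ratio there. With the brightest probe set, other adhesion gave 0 and factors at the Vcam1 promoter 5. Macrophage and leukocyte markers past 2-fold numbered 6, and 1 with either higher floor. Smooth muscle markers past 2-fold numbered 3, and also 1 with either higher floor. Endothelial markers past 2-fold numbered 2, then 1 and 0 with the higher floors in the order above. In these cases the floor or the probe set chosen decides which dim values enter. Genes with a log2 ratio under that of Vcam1 numbered 5 as reported, 2 and 1 with the higher floors in the order above, and 34 with none.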
